A study of Mus musculus with 15 samples.

Results

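Of the 46679 genes in the deposited tables, 9 were taken as the interferon-gamma receptor and regulator genes: Ifngr1 and Ifngr2 (both receptor chains), Jak1 and Jak2 (the receptor's kinases), Irf1, Irf5 and Irf8 (interferon regulatory transcription factors), and Socs1 and Socs3 (feedback inhibitors). They were chosen by name, each from the single row whose Ensembl identifier carries that symbol in GENCODE release M21, and 9 of 9 passed the filter on low counts. RNA had been sequenced from 15 samples, which were end-stage tumor tissue of 4 syngeneic mouse glioblastoma (GBM) lines and naïve brain as the control, with 3 mice per group. CT2A (p53 wild type) and GL261 (K-ras and p53 mutant) are lines induced by methylcholanthrene, 005 carries activated H-ras and AKT on a p53+/- background, and Mut3 has inactivated NF1 and p53. Not every alteration of the lines is listed here. All tumor lines also carried a GFP and firefly luciferase reporter. Each tumor group is thus 1 transduced line grown in the brain of C57BL/6 mice, which were 6 to 8 weeks old at implantation. In the study CT2A tumors reached end stage soonest and Mut3 tumors latest, so the growth time before harvest differed between lines. Implantation used 100000 cells for each line but Mut3, for which it used 500000, and naïve brain had no implant.

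Interferon-gamma, which is released mainly by T and NK cells, binds a receptor built from IFNGR1, the ligand-binding chain, and IFNGR2, the accessory chain. The kinases JAK1 and JAK2 on these chains pass the signal on to GAS elements in the promoters of early target genes such as IRF1, and IRF1 and its relatives then act on ISRE elements of antigen presentation and guanylate-binding protein genes. SOCS1 closes the loop by inhibiting the JAK kinases, and SOCS3 does the same mainly for receptors that use gp130, such as that for IL-6. IRF8 is a factor of myeloid and microglial development, and IRF5 acts below Toll-like receptors in macrophages.

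Total counts ran from 3105119 to 13130158 a library and were lowest in naïve brain, so that 3 counts, the least that counting error allows to be told from none, corresponded to between 0.214 and 0.811 CPM (a count scaled to a fixed library size, here after TMM correction). Markers of 6 neuron genes summed to between 3513 and 5502 CPM in naïve brain and to between 37.4 and 1514 CPM in 11 of the 12 tumor libraries, whereas 005 replicate 3 stood at 3074 CPM. In the same library mitochondrial genes took 17.8% of the counts, beside a highest value of 24.0% in naïve brain and at most 11.3% in the other tumors. A second 005 library, replicate 2, held the most myeloid and T cell marker RNA of all, at 1905 and 336 CPM. Where leaving out either library changes a call or moves a value of 005 clearly, the value without it is given.

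In edgeR's quasi-likelihood test for any difference among the 5 groups, 6 of the 9 genes passed a Benjamini-Hochberg adjusted p of 0.05, as did 52.1% of the 17481 genes tested. They were Irf1 (adjusted p = 8.39e-04), Irf8 (0.00147), Ifngr2 (0.00381), Socs3 (0.00395), Jak1 (0.00502) and Socs1 (0.00849). Ifngr1 (0.449), Irf5 (0.595) and Jak2 (0.0764) did not pass. The genes that passed fell into 2 patterns. By mean CPM, Irf1, Irf8, Socs1 and Socs3 were lowest in naïve brain and highest in GL261 and 005, and Ifngr2 and Jak1 were lowest in Mut3. For Irf8 and Socs3, however, libraries of naïve brain and Mut3 overlapped. On the deposited TPM values, which are scaled to gene length, both were lowest in Mut3 (means 0.660 and 0.172, with 0.846 and 0.231 in naïve brain). In bulk tissue, fewer cells that express a gene and less RNA in each cell cannot be told apart.

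For each tumor against naïve brain, a gene was called at an adjusted p under 0.05 and at least a 2-fold change. In CT2A, 3 of the 9 genes were called higher and 0 lower, beside 19% and 20.2% of all genes tested. In GL261, 4 were called higher and 0 lower, beside 14.6% and 7.77%. In 005, the counts were also 4 and 0, beside 11.6% and 1.05%. In Mut3, 0 were called higher and 2 lower, beside 17.9% and 19.8%. The count fell to 1 in CT2A without naïve replicate 1, naïve replicate 2 or CT2A replicate 2, and to 2 in 005 without naïve replicate 1 or 005 replicate 2. The median log2 fold change of the 9 genes was highest in 005 at 1.11, followed by 0.84 for GL261, 0.48 for CT2A and 0.31 for Mut3, where the medians of all genes tested lay between −0.08 and 0.11.

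**Figure D1:**
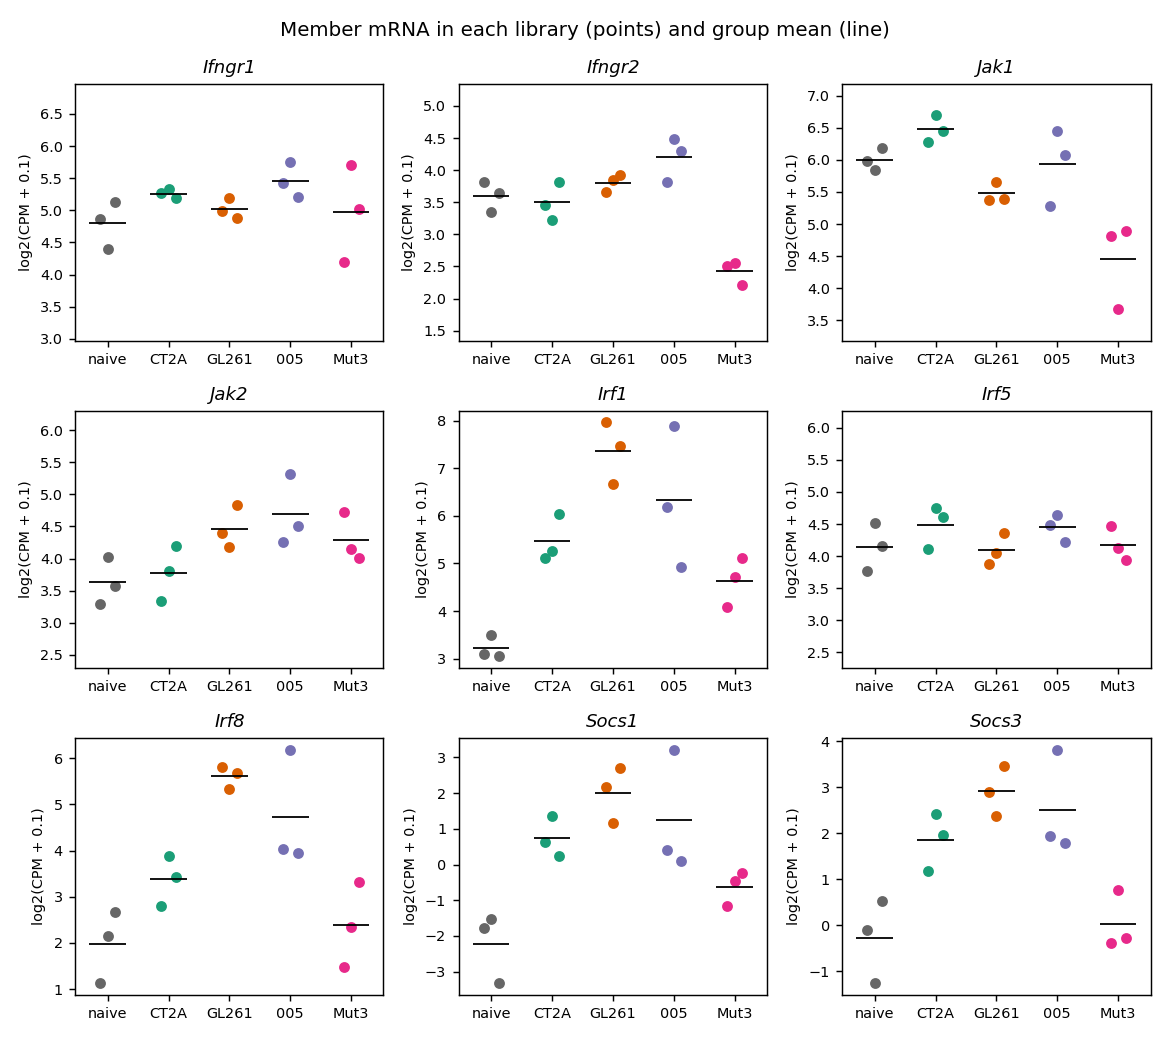
Level of each of the 9 genes as log2(CPM + 0.1) on the y axis, with 1 point for each of the 3 libraries of a group on the x axis and a line at the group mean. Irf1, Irf8, Socs1 and Socs3 are highest in GL261 and in 1 of the 3 libraries of 005, whereas Ifngr2 and Jak1 are lowest in Mut3 and Irf5 is level.

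The receptor chains differed from each other. Ifngr1 (chromosome 10, 19591949 to 19610229 on GRCm38, plus strand) stood at 29.0, 21.01 and 35.0 CPM in naïve brain, at 38.4, 40.2 and 36.3 CPM in CT2A and at 31.5, 36.4 and 29.5 CPM in GL261. It stood at 43.1, 53.8 and 36.9 CPM in 005 and at 18.2, 51.9 and 32.4 CPM in Mut3. The ligand-binding chain was thus spread widely within Mut3, whose libraries overlapped every other group. Against naïve brain the log2 fold change of Ifngr1 lay between 0.20 in GL261 and 0.66 in 005 (adjusted p 0.196 to 0.685), and no comparison called it.

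Ifngr2 (chromosome 16, 91547072 to 91565623, plus strand), the accessory chain, stood at 13.9, 10.04 and 12.4 CPM in naïve brain, at 10.9, 9.20 and 14.0 CPM in CT2A and at 12.5, 14.2 and 15.1 CPM in GL261. It stood at 14.0, 22.4 and 19.5 CPM in 005 and at 5.61, 5.78 and 4.51 CPM in Mut3. The 3 Mut3 libraries lay below each of the other 12. In Mut3 the gene was lower than in naïve brain by a log2 fold change of −1.19 (SE 0.31, adjusted p = 0.00723). Of the neuron, oligodendrocyte and astrocyte markers, 6 of 6, 4 of 5 (2 without naïve replicate 2 or Mut3 replicate 1) and 3 of 5 were also called lower in Mut3 than in naïve brain, beside 19.8% of all genes tested, and their part in the decrease of Ifngr2 and Jak1 was not tested. Ifngr2 was also lower in Mut3 than in GL261 (difference 1.40, adjusted p = 0.00793) and 005 (1.81, adjusted p = 0.00203). The difference of CT2A from Mut3 (1.10, adjusted p = 0.0269) was lost when any of CT2A replicate 1 or 3 or the 3 Mut3 libraries was left out (adjusted p 0.0504 to 0.114).

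Of the kinases, Jak1 (chromosome 4, 101152367 to 101265282, minus strand) followed Ifngr2 in being lowest in Mut3. It stood at 63.0, 57.3 and 72.4 CPM in naïve brain, at 77.4, 104 and 87.4 CPM in CT2A, and at 41.6, 50.5 and 42.0 CPM in GL261. In 005 the values were 38.7, 86.9 and 67.4 CPM, and in Mut3 they were 28.1, 12.7 and 29.5 CPM. All Mut3 libraries lay below all libraries of the other groups, and the GL261 libraries lay below those of naïve brain and CT2A. Jak1 was lower in Mut3 than in naïve brain by a log2 fold change of −1.45 (SE 0.35, adjusted p = 0.00476). It was higher in CT2A (1.93, adjusted p = 0.00263) and in 005 (1.45, adjusted p = 0.0111) than in Mut3, and these calls held without each library in turn. The differences of GL261 from Mut3 (0.93, adjusted p = 0.0728) and of CT2A from GL261 (1.00, adjusted p = 0.0892) missed the threshold.

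Jak2 (chromosome 19, 29251828 to 29313080, plus strand), the kinase of the accessory chain, stood at 9.69, 16.2 and 11.7 CPM in naïve brain, 10.04, 13.9 and 18.2 CPM in CT2A and 20.9, 17.97 and 28.4 CPM in GL261. It stood at 19.1, 39.6 and 22.7 CPM in 005 and at 26.4, 17.6 and 16.1 CPM in Mut3. Its levels in GL261 and 005 lay above those in naïve brain, and in Mut3 2 of 3 libraries did. No comparison called Jak2, and the nearest was 005 against naïve brain (log2 fold change 1.11, SE 0.37, adjusted p = 0.0627), which passed without 005 replicate 3 or naïve replicate 2 (adjusted p 0.0341 and 0.0436).

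Irf1 (chromosome 11, 53770014 to 53778374, plus strand), a transcription factor that interferon-gamma induces early, spanned 8.21 to 249 CPM. It stood at 8.44, 11.3 and 8.21 CPM in naïve brain, 34.6, 38.3 and 65.5 CPM in CT2A and 249, 102 and 177 CPM in GL261. In 005 the levels were 73.1, 237 and 30.3 CPM, and in Mut3 they were 16.8, 26.3 and 34.7 CPM. Every tumor library thus lay above every library of naïve brain, and within 005 replicate 3 was lower than each CT2A library while replicate 2 was close to the highest GL261 library. Against naïve brain, Irf1 rose in GL261 by a log2 fold change of 4.25 (SE 0.66, adjusted p = 7.76e-04), in 005 by 3.62 (SE 0.64, adjusted p = 0.00275) and in CT2A by 2.32 (SE 0.61, adjusted p = 0.00904). These 3 calls held without each library in turn, with 2.49 in 005 without its replicate 2. In Mut3 the change was 1.49 (SE 0.60, adjusted p = 0.0602), which was not called. Between tumors, Irf1 was higher in GL261 than in Mut3 (2.76, adjusted p = 0.00813) and in 005 than in Mut3 (2.13, adjusted p = 0.0217), and the latter call was lost without 005 replicate 2, Mut3 replicate 1 or Mut3 replicate 2 (adjusted p 0.0634 to 0.152).

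Irf8 (chromosome 8, 120736358 to 120756694, plus strand), the myeloid factor, stood at 2.08, 4.34 and 6.22 CPM in naïve brain, 6.90, 14.7 and 10.6 CPM in CT2A and 56.2, 40.2 and 51.3 CPM in GL261. The levels were 16.4, 72.8 and 15.3 CPM in 005 and 2.68, 4.98 and 9.88 CPM in Mut3. Each GL261 and 005 library lay above every library of naïve brain, CT2A and Mut3. Against naïve brain, Irf8 rose in GL261 by a log2 fold change of 3.57 (SE 0.68, adjusted p = 0.00273) and in 005 by 3.07 (SE 0.67, adjusted p = 0.00835), which was 1.94 without 005 replicate 2 (adjusted p = 0.0479). Neither Mut3 (change 0.51, adjusted p = 0.549) nor CT2A (change 1.37, adjusted p = 0.101) was called. Irf8 was also higher in GL261 than in Mut3 (3.06, adjusted p = 0.00666) and in 005 than in Mut3 (2.56, adjusted p = 0.0133), the latter not without Mut3 replicate 1 or 005 replicate 2 (adjusted p 0.0578 and 0.0693). The difference of CT2A from GL261 (−2.20, adjusted p = 0.0443) was lost when any of the 6 libraries was left out (adjusted p 0.0765 to 0.143).

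Irf5 (chromosome 6, 29526625 to 29541871, plus strand), the factor below Toll-like receptors, did not share this pattern. It stood at 13.5, 22.7 and 17.8 CPM in naïve brain, 17.2, 26.9 and 24.2 CPM in CT2A and 14.5, 16.4 and 20.5 CPM in GL261. The levels were 22.4, 24.9 and 18.5 CPM in 005 and 21.9, 17.3 and 15.3 CPM in Mut3, so that all groups overlapped. Against naïve brain its log2 fold change lay between −0.07 in GL261 (95% interval −0.71 to 0.57) and 0.34 in CT2A (−0.30 to 0.98).

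Socs1 (chromosome 16, 10782240 to 10785536, minus strand), the inhibitor of the JAK kinases, was hardly read in naïve brain, where its estimated counts were 0.93, 0.98 and 0. It stood at 1.45, 2.47 and 1.08 CPM in CT2A, 4.37, 2.12 and 6.39 CPM in GL261, 1.23, 9.19 and 0.974 CPM in 005 and 0.343, 0.632 and 0.742 CPM in Mut3. In the summed counts, the ratio of Socs1 to naïve brain was 28.5 in GL261 (95% exact interval 7.66 to 239), 20.1 in 005 (5.42 to 168), 10.2 in CT2A (2.61 to 87.1) and 3.57 in Mut3 (0.839 to 32.0), where the intervals cover counting error only. The level was called higher than in naïve brain in GL261 (adjusted p = 0.00958), 005 (adjusted p = 0.0164) and CT2A (adjusted p = 0.0309) but not in Mut3 (adjusted p = 0.256). The call in 005 was lost without 005 replicate 2, naïve replicate 1 or naïve replicate 3 (adjusted p 0.0630 to 0.117), and that in CT2A without CT2A replicate 2 or any naïve library (adjusted p 0.0517 to 0.0886). Socs1 was also higher in GL261 than in Mut3 (log2 fold change 2.91, adjusted p = 0.0337) and in 005 than in Mut3 (2.72, adjusted p = 0.0388). The former was lost without GL261 replicate 1 or 3 or any Mut3 library (adjusted p 0.0556 to 0.112), and the latter without 005 replicate 2 or any Mut3 library (adjusted p 0.0801 to 0.395).

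Socs3 (chromosome 11, 117966079 to 117970047, minus strand), the inhibitor of gp130 receptors, stood at 0.831, 0.317 and 1.33 CPM in naïve brain, 2.15, 5.20 and 3.76 CPM in CT2A and 7.37, 5.05 and 10.9 CPM in GL261. The levels were 3.72, 14.0 and 3.32 CPM in 005 and 0.659, 1.59 and 0.720 CPM in Mut3. Naïve brain and Mut3 overlapped, and all libraries of CT2A, GL261 and 005 lay above both. Socs3 rose against naïve brain by a log2 fold change of 3.26 in GL261 (SE 0.75, adjusted p = 0.00800), 3.10 in 005 (SE 0.74, adjusted p = 0.0143) and 2.18 in CT2A (SE 0.74, adjusted p = 0.0298), with 0.31 in Mut3 (adjusted p = 0.775). The call in 005 was lost without naïve replicate 1 or 005 replicate 2 (adjusted p 0.0605 and 0.0903), and that in CT2A without naïve replicate 1 or 2 or CT2A replicate 2 or 3 (adjusted p 0.0644 to 0.0797). Socs3 was higher in GL261 than in Mut3 (2.96, adjusted p = 0.0114) and in 005 than in Mut3 (2.80, adjusted p = 0.0128), the latter not without Mut3 replicate 1 or 005 replicate 2 (adjusted p 0.0521 and 0.0603).

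**Figure D2:**
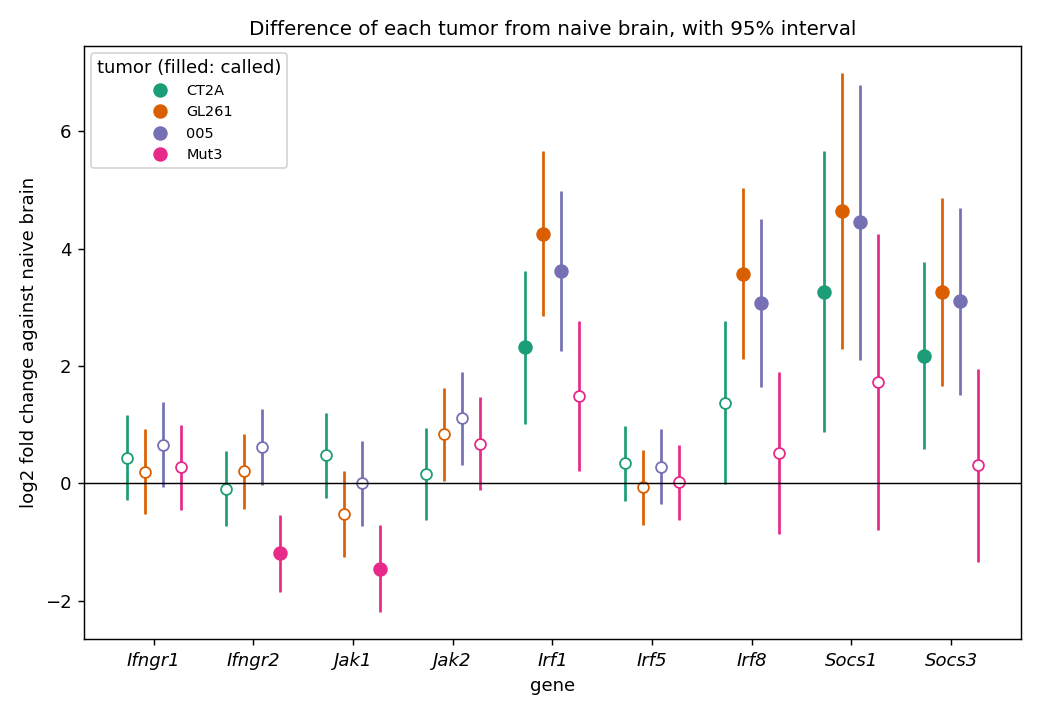
Fitted log2 fold change of each gene (x axis) in each tumor against naïve brain (y axis), with its 95% interval as a bar and filled points for called genes. Irf1, Irf8, Socs1 and Socs3 lie highest in CT2A, GL261 and 005, with GL261 at 4.25 for Irf1 and 4.64 for Socs1. In Mut3, Jak2 (0.68) lies above Irf8 (0.51) and Socs3 (0.31). The 2 called decreases are those of Ifngr2 (−1.19) and Jak1 (−1.45) in Mut3. The fitted value of Socs1 depends on the prior count because naïve brain held 2 reads in all.

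For Irf1, Irf8, Socs1 and Socs3, the order of the group means in CPM was GL261, 005, CT2A, Mut3 and naïve brain. In TPM, Mut3 and naïve brain changed places for Irf8 and Socs3. No pair of neighbours in the CPM order was called for any of the 4 genes, and the calls came from groups further apart. The place of 005 rested on its replicates 2 and 3. Without replicate 2 the fitted difference of CT2A from 005 turned to 0.57 for Socs1 and 0.06 for Socs3, and without replicate 3 that of GL261 from 005 turned to −0.27 and −0.18. Between pairs of tumors, 1 of the 9 genes was called in CT2A against GL261 (7.77% of all genes tested), 2 in CT2A against Mut3 (12.8%), 5 in GL261 against Mut3 (17.2%) and 6 in 005 against Mut3 (19.8%). Of the 9 genes, 0 were called by edgeR in CT2A against 005 (4.11% of all genes tested) and 0 in GL261 against 005 (2.62%), where 4 and 0 had an unadjusted p under 0.05. The largest difference in GL261 against 005 was that of Irf1 (0.63, 95% interval −0.58 to 1.85, adjusted p = 0.695). It was 1.77 without 005 replicate 2 (adjusted p = 0.0964), where Socs1 at 1.94 was larger (adjusted p = 0.275), and 0.17 without 005 replicate 3. DESeq2 also called 0 of the 9 genes in both of these comparisons. Leaving out 1 library moved the counts, to 0 in CT2A against GL261 without any of its 6 libraries, to 1 in CT2A against Mut3 without any of them but CT2A replicate 2, and to 2 in 005 against Mut3 without 005 replicate 2 or Mut3 replicate 1.

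GL261 and 005 were also set together against CT2A and Mut3, the division of the lines that the study discusses, with 6 libraries on each side. The study drew this division from its RNA sequencing of these tumors, so the contrast gives no independent support for it. Mice that bear the same line are also not independent samples of a class. Of the 9 genes, 5 were called higher in GL261 and 005 and 0 lower, beside 12.6% and 4.29% of all genes tested. Brain cell markers moved with this contrast too. Of 6 neuron markers 6 were called higher in GL261 and 005 (4 to 6 without each library in turn), of 5 oligodendrocyte markers 3 and of 5 astrocyte markers 3, and their part in the levels of the 9 genes was not tested. The 5 genes were Irf8 (log2 fold change 2.38, SE 0.45, adjusted p = 0.00354), Ifngr2 (1.05, SE 0.21, adjusted p = 0.00507), Irf1 (2.03, SE 0.42, adjusted p = 0.00556), Socs3 (1.94, SE 0.47, adjusted p = 0.0116) and Socs1 (2.05, SE 0.59, adjusted p = 0.0262). Only Irf8 had no overlap between the 6 and the 6 libraries, which held for 1.94% of all genes in this direction. The call of Socs1 was lost without CT2A replicate 3, GL261 replicate 3, 005 replicate 2 or Mut3 replicate 1 (adjusted p 0.0612 to 0.102). Without 005 replicate 2 the differences were 1.81 for Irf8, 1.46 for Irf1 and 1.45 for Socs3, and 3 of the 9 genes were called, as they were without GL261 replicate 3. Ifngr2 fell just under 2-fold without GL261 replicate 3, 005 replicate 2 or 005 replicate 3 (lowest log2 fold change 0.98, adjusted p 0.00807 to 0.0176). When the chemically induced lines (CT2A, GL261) were set against 005 and Mut3, 0 of the 9 genes were called by edgeR (5.06% of all genes tested) and by DESeq2, and 2 had an unadjusted p under 0.05. Without 005 replicate 2, Irf1 was called there (1.30 higher in CT2A and GL261, adjusted p = 0.0273).

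The promoter letters of the genes that rose are shown because GAS and ISRE elements are the sites through which interferons act on promoters. Windows of 300 bases (250 before and 50 after each annotated start) of the RefSeq annotation on GRCm38.p6 were searched on both strands for GAS, written TTCNNNGAA, and ISRE, written GAAANNGAAA, and RefSeq windows were found for 9 of 9 genes. GAS letters stood in 8.29% of all 32817 windows and in a window of 3 of the 9 genes (Irf1, Irf8 and Socs3), and ISRE letters in 3.43% of all windows and in that of 1 (Socs1). Irf1 and Irf8 had 2 windows each, of which the second held no match, and the other genes had 1. The shares are of windows and the counts are of genes. The 250 bases before the start follow 5′ to 3′ on the gene's strand, with the matches in capitals, for Irf1 (chr11:53769764-53770013), Irf8 (chr8:120736108-120736357) and Socs1 (chr16:10785537-10785786, minus strand, with a pair of ISRE matches that overlap), followed by the GAS match of Socs3 with 10 bases on each side (chr11:117969502-117969530, minus strand).
Irf1: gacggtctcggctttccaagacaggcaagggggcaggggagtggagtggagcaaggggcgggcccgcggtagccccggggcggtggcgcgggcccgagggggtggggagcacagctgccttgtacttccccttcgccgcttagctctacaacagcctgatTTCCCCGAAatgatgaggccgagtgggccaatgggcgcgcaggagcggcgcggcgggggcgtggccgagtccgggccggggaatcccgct
Irf8: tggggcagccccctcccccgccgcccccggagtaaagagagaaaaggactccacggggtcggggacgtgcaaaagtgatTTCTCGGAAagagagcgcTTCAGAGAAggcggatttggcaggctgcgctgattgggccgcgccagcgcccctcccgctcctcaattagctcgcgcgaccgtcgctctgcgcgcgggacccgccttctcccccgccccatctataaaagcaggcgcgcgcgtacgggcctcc
Socs1: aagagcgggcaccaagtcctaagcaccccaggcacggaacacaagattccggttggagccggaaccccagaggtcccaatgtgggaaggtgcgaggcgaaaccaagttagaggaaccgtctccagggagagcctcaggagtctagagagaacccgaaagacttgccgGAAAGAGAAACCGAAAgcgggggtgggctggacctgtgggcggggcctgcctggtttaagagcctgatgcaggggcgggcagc
Socs3: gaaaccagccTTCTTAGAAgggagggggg
The GAS match of Irf1 began 90 bases before the start, those of Irf8 171 and 153 bases before it, and that of Socs3 154 bases before it. These starts are those of RefSeq. For Socs3 the RefSeq start and the match both lie inside the GENCODE gene span given above. The ISRE matches of Socs1 began 83 and 77 bases before the start. The windows of Ifngr1, Ifngr2, Jak1, Jak2 and Irf5 held neither set of letters. A match is a run of letters and not evidence of binding.

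Pairs of members were also compared within each library, where the scaling between libraries cancels except for the 0.1 added to each TPM, which weighs on low values such as those of Socs1 and Socs3 in naïve brain. The sign and height of a ratio depend on the gene lengths behind TPM, which are uncertain for Irf5, Jak1, Jak2 and Socs1. Per kilobase of the longest transcript, Irf8 lay above Irf5 in GL261 (14.2 and 7.66 CPM) and 005 (10.04 and 9.78). It lay below Irf5 in the other groups. Differences between groups do not depend on these lengths, apart from the 0.1. The log2 ratio of the TPM of Irf8 to that of Irf5 was −1.47 ± 0.37 (SD, n = 3) in GL261 and −2.69 ± 1.08 in 005, against −4.00 ± 0.20 in CT2A, −4.58 ± 1.05 in Mut3 and −5.02 ± 0.54 in naïve brain. The 6 libraries of GL261 and 005 lay above the 6 of CT2A and Mut3, with a difference of 2.21 (two-sided exact permutation test, p = 0.00216, the smallest possible, adjusted p over 8 tests 0.0173). Without Mut3 replicate 2 or 3 the adjusted p was 0.0606 or 0.0519. The log2 ratio of Ifngr1 to Ifngr2 was highest in Mut3, at 2.94 ± 0.75, and lay at 2.25 ± 0.35 in CT2A, 1.80 ± 0.33 in 005, 1.73 ± 0.21 in GL261 and 1.74 ± 0.24 in naïve brain. Over the 6 libraries of GL261 and 005 its mean differed by −0.83 from that over the 6 of CT2A and Mut3 (exact permutation p = 0.00866, adjusted p = 0.0346), with overlap, and this was lost when any library of GL261 or 005, or Mut3 replicate 2 or 3, was left out (adjusted p 0.0519 to 0.0952). For both ratios the permutation shuffled single libraries, although each side held only 2 lines with 3 mice each. The p values thus describe these libraries and cannot be carried over to other lines. With 2 lines on each side, a shuffle of whole lines could not give a small p.

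The log2 ratio of Jak1 to Jak2 was 4.99 ± 0.33 in CT2A and 4.79 ± 0.40 in naïve brain, and it was 3.72 ± 0.33 in 005, 3.45 ± 0.42 in GL261 and 2.60 ± 0.64 in Mut3. All libraries of CT2A and naïve brain lay above all those of the other 3 tumors. Neither tested comparison, which each put CT2A with other tumors, was called (tumors against naïve brain −1.11, exact permutation p = 0.0857, adjusted p = 0.137, and GL261 and 005 against CT2A and Mut3 −0.21, adjusted p = 0.831). The ratio of Socs3 to Socs1 did not pass in either comparison (adjusted p 0.0967 and 0.948), and it rests on counts near 0 in naïve brain.

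**Figure D3:**
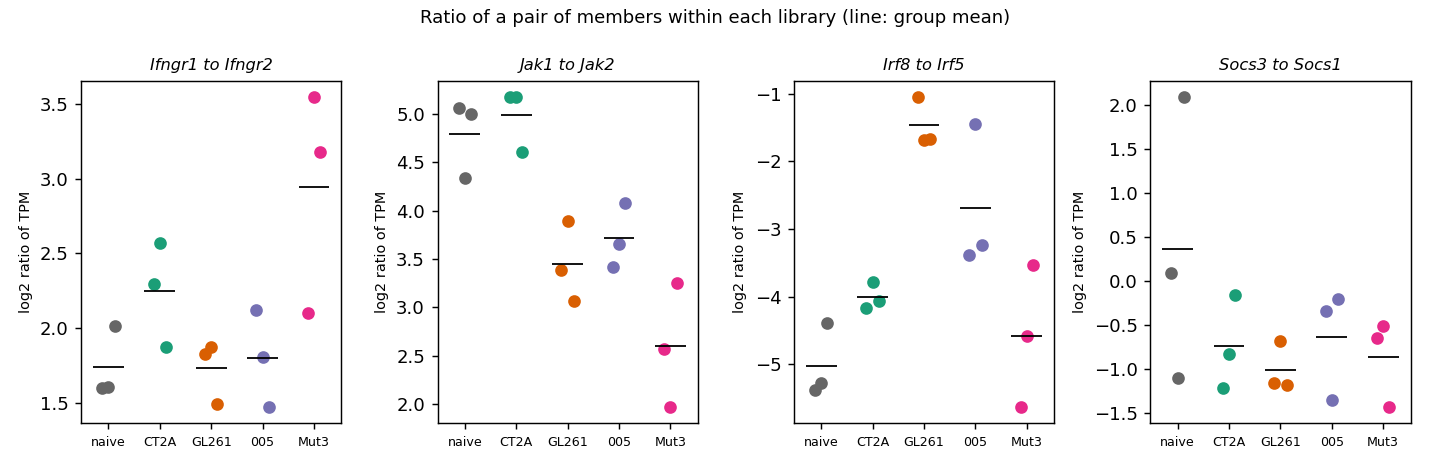
Log2 ratio of the TPM of a pair of genes within each library (y axis, 1 point a library, line at the mean of 3) by group (x axis). The ratio of Irf8 to Irf5 is highest in GL261 (mean −1.47), that of Jak1 to Jak2 is high in naïve brain and CT2A (4.79 and 4.99), and that of Ifngr1 to Ifngr2 is highest in Mut3 (2.94). The sign and height of a ratio depend on uncertain gene lengths, so only differences between groups can be read.

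Levels can be compared between genes only per length. Per kilobase of the longest annotated transcript, Irf1 was the highest of the 9 genes in GL261 (82.4 CPM per kilobase), 005 (53.1) and CT2A (21.6), and Ifngr1 stood at 13.4 in naïve brain, next to Jak1 at 13.1, and at 16.2 in Mut3. Socs1 was the lowest in every group on this scale, from 0.0498 in naïve brain to 1.48 in GL261. The deposited TPM values give another order, with Irf5 the highest in naïve brain (mean 30.5 TPM), CT2A (18.3), 005 (23.3) and Mut3 (16.6), and with Jak1 at 21.2 TPM and Ifngr1 at 7.72 TPM in naïve brain. The length that the ratio of count to TPM implied was 373 bases for Irf5 and 495 for Socs1, where the longest annotated transcripts have 2241 and 2908 bases, and it was 1820 bases for Jak1, where it has 4906, and 11204 for Jak2, where it has 5030. The order of levels between genes is therefore uncertain wherever these 4 genes enter it. This factor is the same in every library, so it leaves the differences between groups as they are.

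Among 21 other genes of the interferon and JAK-STAT pathway, of which 20 were tested, 4 were called higher and 3 lower in CT2A, 8 and 2 in GL261, 8 and 0 in 005, and 8 and 1 in Mut3. In CT2A these shares are close to the 19% higher and 20.2% lower of all genes tested, and in the other tumors all genes stood at 14.6% and 7.77% (GL261), 11.6% and 1.05% (005) and 17.9% and 19.8% (Mut3). The higher counts rested on single libraries, and were 2 in 005 without its replicate 2 and 3 without naïve replicate 1 or 3, 3 in Mut3 without naïve replicate 3 and 4 without Mut3 replicate 2, 5 in GL261 without naïve replicate 1 or 3 or GL261 replicate 1, and 2 in CT2A without naïve replicate 3 or CT2A replicate 3. The phosphatase genes Ptpn2 and Ptpn6 and the interferon-induced Usp18 were called higher in each of the 4 tumors, although Ptpn2 in 005 lost its call without 5 of the 6 libraries in turn, Ptpn6 in CT2A without 2 and Usp18 in Mut3 without 2. Mut3 differed in Stat5a, a STAT of cytokine and growth hormone receptors, which rose from 2.32 ± 0.66 CPM (SD, n = 3) in naïve brain to 34.4 ± 21.1 CPM (log2 fold change 3.88, adjusted p = 7.99e-04). Ifng itself reached between 1.23 and 9.54 CPM in 005, 0.162 and 3.19 in GL261, 0.303 and 0.973 in CT2A, at most 0.365 in Mut3 and at most 0.269 in naïve brain, where this is under 3 counts. Against naïve brain it was called in 005 (adjusted p = 0.0382) and in no other tumor, and this call was lost without 005 replicate 2 or any naïve library (adjusted p 0.0761 to 0.229).

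Of 16 interferon-gamma target genes, 15 were called higher in each of GL261 and 005, 14 in CT2A and 11 in Mut3, and 1 was called lower, in Mut3. All genes tested were called higher at 14.6%, 11.6%, 19% and 17.9% in these tumors. Leaving out each library in turn gave 15 targets in GL261, 13 to 15 in 005, 11 to 13 in CT2A and 6 to 11 in Mut3, with the lowest of the last without Mut3 replicate 3 and 7 without naïve replicate 1. In the order CT2A, GL261, 005 and Mut3, the median log2 fold change was 3.22, 5.17, 4.26 and 2.41, and it was 3.07, 5.17, 4.26 and 2.29 with Ciita, which had 0 counts in naïve brain, set against 3 counts. Gbp2, a guanylate-binding protein, rose from 18.1 ± 1.1 CPM in naïve brain to 1070 ± 417 CPM in GL261, 1031 ± 1251 in 005, 240 ± 13 in CT2A and 80.0 ± 66.6 in Mut3. Its call in Mut3 (adjusted p = 0.0423) was lost without any naïve library or Mut3 replicate 2 or 3, and those in the other tumors held. Tap1, the peptide transporter of antigen presentation, rose from 2.77 ± 0.63 CPM to between 21.5 ± 14.0 CPM in Mut3 and 69.9 ± 19.0 CPM in GL261 (adjusted p 0.00118 to 0.00601). In Mut3 the targets Psmb8, Psmb9, Tap1, B2m, Nlrc5, Gbp2, Gbp3, Irgm1, Igtp, Cxcl9 and Ciita were called higher. Cd274, Cxcl10, Gbp4 and Gbp5 were not called and Ido1 was called lower. Of these calls, those of Psmb8, Psmb9, Tap1, B2m, Gbp3, Irgm1 and Ido1 held without each library in turn. That of Nlrc5 was lost without naïve replicate 3 or Mut3 replicate 3, and that of Igtp without naïve replicate 1 or Mut3 replicate 3. That of Cxcl9 was lost without naïve replicate 1 or 2 or Mut3 replicate 3, and that of Ciita without any naïve library or Mut3 replicate 2 or 3.

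**Figure D4:**
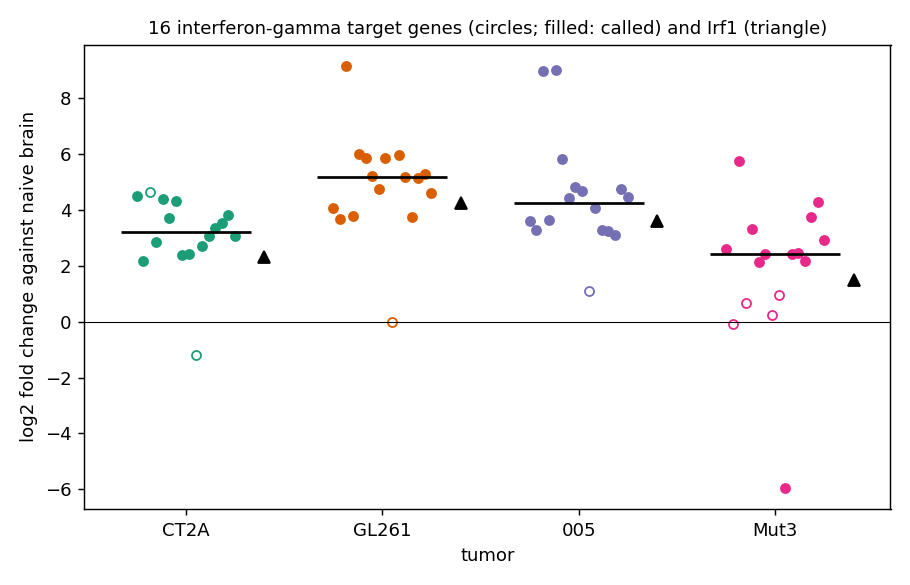
Log2 fold change against naïve brain (y axis) of 16 interferon-gamma target genes in each tumor (x axis), as circles that are filled where called, with a line at their median and a triangle for Irf1. The medians are 3.22, 5.17, 4.26 and 2.41, each above the Irf1 value of the same tumor (2.32, 4.25, 3.62 and 1.49); the highest circles are fitted values of genes near 0 in naïve brain.

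Of 6 other IRF genes, 5 were tested, and 3 were called higher and 1 lower in CT2A, 4 higher in GL261, 2 in 005 and 1 in Mut3. The 1 higher in Mut3 and the 1 lower in CT2A are near the shares of all genes, 17.9% and 20.2%. In 005 the higher count was 0 without replicate 2 and 4 without replicate 3. Without each library in turn it was 2 to 3 in CT2A, 2 to 4 in GL261 and 0 to 1 in Mut3. Irf7, a factor of the type I interferon response, rose from 1.44 ± 1.05 CPM in naïve brain to 27.4 ± 11.6 CPM in CT2A, 21.8 ± 8.2 in GL261 and 7.38 ± 5.62 in 005, of which the call in 005 (adjusted p = 0.0483) was lost without any of 5 libraries. Its mean in CT2A was thus above that in GL261, the other way round from Irf1 and Irf8, with no call between these tumors. Of 6 other SOCS genes, 4 were called lower in Mut3 (Cish, Socs2, Socs5 and Socs7) and 1 higher (Socs4), while CT2A had 1 higher and 2 lower, GL261 0 and 2, and 005 1 and 0. The counts in CT2A are near the background of 19% and 20.2%. In Mut3, Socs5 and Socs7 held without each library in turn, Cish was lost without naïve replicate 2, and Socs2 and Socs4 were each lost without 3 libraries. Of 12 genes of gp130 cytokines and receptors, for which SOCS3 is the feedback inhibitor, 2 were called higher and 1 lower in CT2A, 1 higher in GL261, 3 higher in 005 and 1 lower in Mut3, which in CT2A, GL261 and Mut3 is at or under the share of all genes. In 005 these were Lif, which rose from 0.823 ± 0.229 to 12.8 ± 11.03 CPM, Osmr (2.62 ± 0.45 to 10.2 ± 4.8 CPM) and Il6ra (3.71 ± 1.55 to 19.5 ± 12.5 CPM). Only Lif kept its call without each library in turn, and without 005 replicate 2 it was the 1 gene of the list called.

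Markers of immune cells moved with the genes that rose. Of 8 myeloid markers, 7 were called higher than in naïve brain in each of CT2A, GL261 and 005, and 0 higher and 2 lower in Mut3, where 19.8% of all genes were lower. Their summed level was 151 to 215 CPM in naïve brain, 451 to 590 in CT2A, 784 to 1346 in GL261, 631 to 1905 in 005 and 96.6 to 277 in Mut3, and none was at 0 in a whole group. Of 6 T cell markers 5 were tested, and 4 were called higher in each of CT2A, GL261 and 005 and 0 in Mut3, while Cd4 was called lower in CT2A and Mut3, with sums of 4.31 to 30.8 CPM in naïve brain, 22.2 to 47.8 in CT2A, 63.9 to 112 in GL261, 56.7 to 336 in 005 and 6.87 to 18.1 in Mut3. Of 6 microglia markers 1 was called higher in GL261, 2 lower in CT2A, 0 in 005 and 4 lower in Mut3, with sums of 189 to 227 CPM in naïve brain, 142 to 161 in CT2A, 253 to 335 in GL261, 217 to 316 in 005 and 64.7 to 93.3 in Mut3. The Cd4 calls were lost without 4 of 6 libraries in turn in CT2A (adjusted p 0.0532 to 0.505) and in Mut3 (0.0505 to 0.391). Without each library in turn, 6 to 7 myeloid markers were called higher in CT2A, GL261 and 005, and 1 to 2 lower in Mut3. Microglia markers ran from 0 to 1 higher in GL261 and 005, and from 1 to 2 lower in CT2A, 0 to 2 in 005 and 3 to 4 in Mut3. The part of the immune markers in the levels of the 9 genes was not tested.

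Set against the mean log2 level of the 8 myeloid markers in the same library, Socs3 lay between −3.71 and −3.13 in the 5 group means and between −4.38 and −2.44 in single libraries. The prior count of 2 lifts its value in naïve brain, where Socs3 had few counts. Irf8 lay at −0.46 ± 0.20 (SD, n = 3) in GL261, with its other group means between −2.06 in CT2A and −1.21 in Mut3. Irf1 lay at 1.29 ± 0.43 in GL261 and 1.00 ± 0.13 in Mut3, and at −0.42 ± 0.46 in naïve brain, 0.03 ± 0.25 in CT2A and 0.15 ± 0.74 in 005. Relative to these markers, Irf1 in Mut3 was thus above each library of naïve brain, CT2A and 005. A high value in Mut3 was not particular to Irf1. Ifngr1 (1.33 ± 0.61), Jak2 (0.66 ± 1.02), Irf5 (0.54 ± 0.91) and Socs1 (−3.97 ± 0.31) had their highest group means there. The next means were near for Ifngr1 (1.15) and Irf5 (0.50), both in naïve brain, and for Socs1 (−4.01 in GL261). For Jak2 the next was −0.01 in naïve brain. Socs1 in Mut3 had only 3.06 to 8.44 estimated counts a library, so the prior count lifts its value too. The receptor chain Ifngr2 had its highest value on this scale in naïve brain (−0.04 ± 0.02) and its lowest in GL261 (−2.25 ± 0.44). No test was made of these values.

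**Figure D5:**
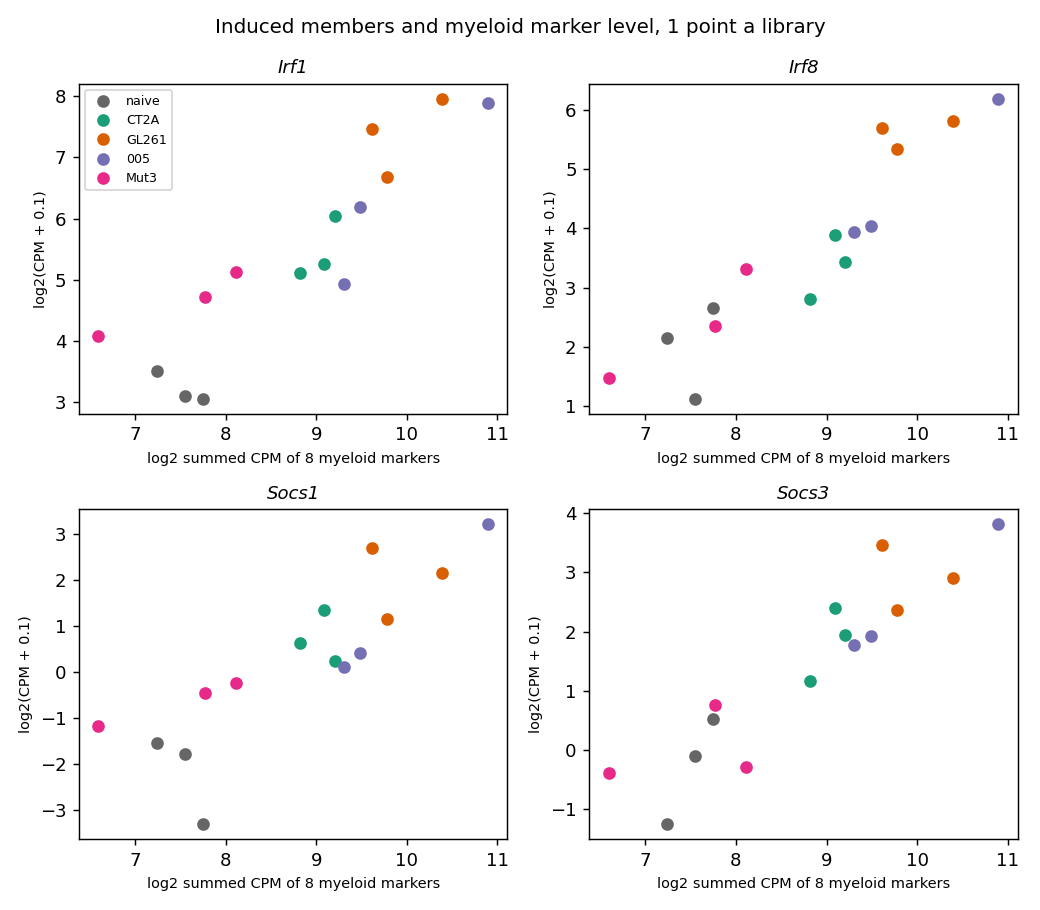
Level of Irf1, Irf8, Socs1 and Socs3 as log2(CPM + 0.1) (y axis) against the log2 summed CPM of 8 myeloid markers (x axis), with 1 point a library coloured by group. The library of 005 with the highest marker sum, 1905 CPM, is also the highest for Irf8, Socs1 and Socs3, and Mut3 lies above naïve brain for Irf1 at a like marker level.

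Across the 15 libraries and the 8936 other genes with a mean log2 CPM of at least 3, the genes most like each member by Pearson's r are given as a description, since the libraries share groups, depth and tissue makeup. Most like Irf1 were Gm38316 (r = 0.98), a gene model without a known product, the interferon-induced Gbp2 (0.98) and the proteasome activator Psme2 (0.97). Most like Irf8 were Cd74 (0.97) and H2-Aa (0.96), both of MHC class II, and Il18bp (0.96). Socs1 was most like Lgals3bp (0.95), Tapbp (0.94), the chaperone that loads MHC class I, and Gbp2 (0.94), and Socs3 most like Slfn2 (0.95), Srgn (0.94) and Gmfg (0.94). The receptor and kinase genes had other neighbours, with Ifngr1 most like Tmsb4x (0.89), Ifngr2 like Blnk (0.90), Jak1 like Skil (0.93), Jak2 like Cotl1 (0.86) and Irf5 like Sltm (0.83). Among the members themselves, r was 0.94 for Irf1 and Socs1, 0.93 for Irf1 and Irf8, 0.89 for Irf8 and Socs3 and 0.89 for Socs1 and Socs3. Between Ifngr1 and Ifngr2 it was 0.31, between Jak1 and Jak2 −0.17, and between Ifngr2 and Jak1 0.64.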

How the data were processed

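RNA-seq of 15 samples was used. Reads were aligned by the authors with STAR to the GENCODE mouse genome, and their processing notes name Salmon, DESeq2 1.18.1 and mm10, which is not tied there to a step. The authors deposited estimated counts per gene, with no scaling between samples, and TPM values, which are scaled to a fixed total and to gene length. The quantifier and the annotation release are not given in the sources used here. Genes took names and positions from GENCODE release M21 (GRCm38), which matched 46201 of 46679 identifiers.

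After rounding, the estimated counts were fitted with edgeR 4.0.16 under R 4.3.3 (filterByExpr, TMM, quasi-likelihood test over all 15 samples, a mean per group, no covariate), with Benjamini-Hochberg adjustment over 17481 genes. A log2 CPM had a prior count of 2. Ratios were taken from log2(TPM + 0.1) and compared by exact permutation in Python 3.11.15 with scipy 1.17.1. Alternatives used DESeq2 1.42.0 and limma 3.58.1. The 9 genes, the lists and the comparisons were chosen with earlier results of these data known. Named genes are the 9 members, the genes of the lists, and for each member the 3 genes most like it by Pearson's r; those described from the lists were chosen after their values were seen. Samples were grouped by the labels, each sample being 1 mouse. Tested on simulated counts for GL261 against naïve brain (16978 genes), the steps called 4.08% of genes changed by 2-fold, 28.6% by 4-fold, 62% by 8-fold and 79.6% by 16-fold, so that uncalled genes may differ. Each share rests on 49 or 50 genes, and a 2-fold change lies at the threshold of a call. Far more genes were called in the data (3913). The adjustment is stricter where few genes change, so the shares need not hold here. Some items of the lists and lines are not reported here.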

Additional observations from a re-analysis of the deposited data

Results flagged for a closer look

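Differences in the tumor effect between 2 lines, measured as the contrast of the lines in the same edgeR fit, were called 14 times among the 9 genes (log2 fold change, first line minus second). Mut3 was 1 of the lines in 13 of them. Pairs with Mut3 also held the most calls over all genes tested. Those shares were 12.8% for CT2A, 17.2% for GL261 and 19.8% for 005 against Mut3. They were 7.77% for CT2A against GL261, 4.11% for CT2A against 005 and 2.62% for GL261 against 005. For Ifngr2 the value was 1.10 in CT2A against Mut3, 1.40 in GL261 against Mut3 and 1.81 in 005 against Mut3. For Jak1 it was 1.93 in CT2A and 1.45 in 005 against Mut3. For GL261 and 005 against Mut3, Irf1 differed by 2.76 and 2.13, Irf8 by 3.06 and 2.56, Socs1 by 2.91 and 2.72, and Socs3 by 2.96 and 2.80. The remaining value was −2.20 for Irf8 in CT2A against GL261, a call that was lost without any of the 6 libraries. Ifngr2 in CT2A against Mut3 and Socs1 in GL261 against Mut3 were each lost without 5 of 6 libraries in turn. Several of the other calls were lost without single libraries too, as given for each gene above. Mut3 also received more cells at implantation than the other lines and took the longest to reach end stage. Neither can be told apart from the line.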

How the results depend on the processing

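Under the settings that kept every library, 943 values of a gene in a comparison were tested. In 887 of them the outcome, called or not called, was as reported. Of the rest, 37 calls were lost and 19 were gained, and no called value changed direction. Most values were not called in the main fit, so the 887 are mainly values that stayed uncalled and not calls that held. Sign changes of uncalled values were not counted. An example is Ifngr1 in CT2A against naïve brain, at 0.44 in the main fit and −0.51 on the TPM scale. The counts of genes called that moved by over 1.5 times are these. Requiring at least 10 counts in every sample, which leaves Socs1 and Socs3 untested, gave 1 in CT2A, 2 in GL261 and 2 in 005 against naïve brain, 2 in CT2A against GL261, 3 in GL261 against Mut3 and 3 in GL261 and 005 against CT2A and Mut3. With limma on log2(TPM + 1) these were 0 in CT2A against naïve brain, 2 in CT2A against GL261, 1 in CT2A against Mut3, 2 in GL261 against Mut3 and 2 in GL261 and 005 against CT2A and Mut3. In CT2A against GL261 the count was 3 with DESeq2, 3 with only the samples compared, and 2 with library size in place of TMM, without a filter or with limma on log2(TPM + 0.1). In CT2A against Mut3 it was 1 with library size, without a filter and with limma on log2(TPM + 0.1). Centring each sample on its median gene, which was chosen after seeing the data, gave 1 there and 3 in GL261 and 005 against CT2A and Mut3. With only the samples compared it was 0 in 005 against naïve brain and 1 in 005 against Mut3. The causes were not tested. Leaving out each library in turn gave 0 calls in CT2A against GL261, and 1 to 3 in CT2A against naïve brain, 2 to 5 in 005 against naïve brain, 2 to 6 in 005 against Mut3, 1 to 2 in CT2A against Mut3, 3 to 5 in GL261 and 005 against CT2A and Mut3, and 0 to 1 in CT2A and GL261 against 005 and Mut3. The log2 ratio differences then ran from 1.95 to 2.47 for Irf8 to Irf5 in GL261 and 005 against CT2A and Mut3, from −0.97 to −0.64 for Ifngr1 to Ifngr2 there, from 1.64 to 2.14 for Irf8 to Irf5 in tumors against naïve brain, called without Mut3 replicate 1, and from −1.91 to −0.30 for Socs3 to Socs1, called without naïve replicate 2.

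With the replicate number as a block, the count fell to 1 in CT2A against Mut3 and to 4 in 005 against Mut3, and no other count of the 9 genes changed. The numbers do not pair the samples, since same-numbered samples of different groups deviated with a mean correlation of −0.03 over 30 pairs, of which 1 was over 0.1.

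The TPM scale moved all genes. Its median log2 fold change against naïve brain over all genes was −0.48 for 005, −0.55 for Mut3, −0.74 for GL261 and −0.81 for CT2A, so that Ifngr1 read −0.51 in CT2A on it and 0.30 relative to that median. The counts of all genes called, which are the background, moved by over 1.5 times too, for example from 458 to 943 with DESeq2 and to 148 with only the samples compared in GL261 against 005, from 2217 to 222 with only the samples compared in 005 against naïve brain, from 719 to 1762 with DESeq2 in CT2A against 005, and from 2959 to 764 with limma on log2(TPM + 1) in GL261 and 005 against CT2A and Mut3. Leaving out each library for the counts of the gene lists was added after seeing the data, and its values stand beside some of those counts.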
